A study of Danio rerio with 16 samples.

Results

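Fibrinogen and the coagulation factors are plasma proteins that the liver makes and secretes, and 10 of their genes were followed through the larval zebrafish liver: fga, fgb and fgg for the fibrinogen chains, f2 for prothrombin, f5, f7, f9b and f10 for factors V, VII, IX and X, plg for plasminogen and serpinc1 for antithrombin. They were picked by gene symbol from 32058 counted features, and all 10 passed the filter on low counts that left 17799 genes for testing. RNA from dissected livers was sequenced in 16 libraries, 2 for each of 8 groups, and every library pooled the livers of 30 larvae. Wild-type larvae kept under conditions labelled normal were taken at 4 and at 5 days post fertilization (dpf). At 6 dpf there were fasted wild-type larvae, fasted Tg(fabp10a:GCaMP6s) larvae, which carry a calcium reporter under the promoter of a hepatocyte fatty acid binding protein, and fasted wild-type larvae given ethanol. At 7 dpf there were fasted wild-type larvae, fed wild-type larvae and a second fed wild-type group named ventral. No source used here gives the ethanol dose, its duration or what ventral stands for. Whether the 2 pools of a group were drawn from separate clutches is not stated either, so the p-values measure the spread between these pools, which may be partly technical.

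In vertebrates, vessel injury exposes tissue factor, which with factor VIIa activates factors IX and X. Factor Xa with its cofactor factor Va then turns prothrombin into thrombin, and thrombin cuts fibrinogen, a hexamer with a pair of each of its alpha, beta and gamma chains, into the fibrin of the clot. Antithrombin blocks thrombin and factor Xa, and plasmin, made from plasminogen, dissolves fibrin. Prothrombin and factors VII, IX and X are carboxylated in a reaction that uses vitamin K, without which they do not bind membranes. Hepatocytes are the main source of most of these proteins, and in mammals the fibrinogen genes are also induced by interleukin 6 in the acute-phase response.

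Libraries held 18995692 to 28033476 counts. The 10 genes took 1.65% to 3.29% of the counts of a library, and the 3 fibrinogen chains alone took 0.843% to 2.27%. Levels below are CPM (the count of a gene relative to the library's total) after scaling by trimmed mean of M values (TMM), as mean ± SD with n = 2, and they are not corrected for transcript length, so levels are compared within a gene only. A gene was called changed, and is said to have risen or fallen, where edgeR's quasi-likelihood test gave a Benjamini-Hochberg adjusted p under 0.1 and the fold change reached 2, as in the series' design text. With 2 libraries against 2, an exact permutation test of a single gene cannot go below p = 0.333, so every p comes from the fit across all genes. All 10 hepatocyte markers were counted in all libraries, where they summed to between 4.32% of counts with ethanol and 11.9% in fed liver. The tag feature EGFP had 136106 and 43968 counts in the GCaMP libraries, 38 in each fasted wild-type library at 6 dpf and 0 in the other 12.

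**Figure D1:**
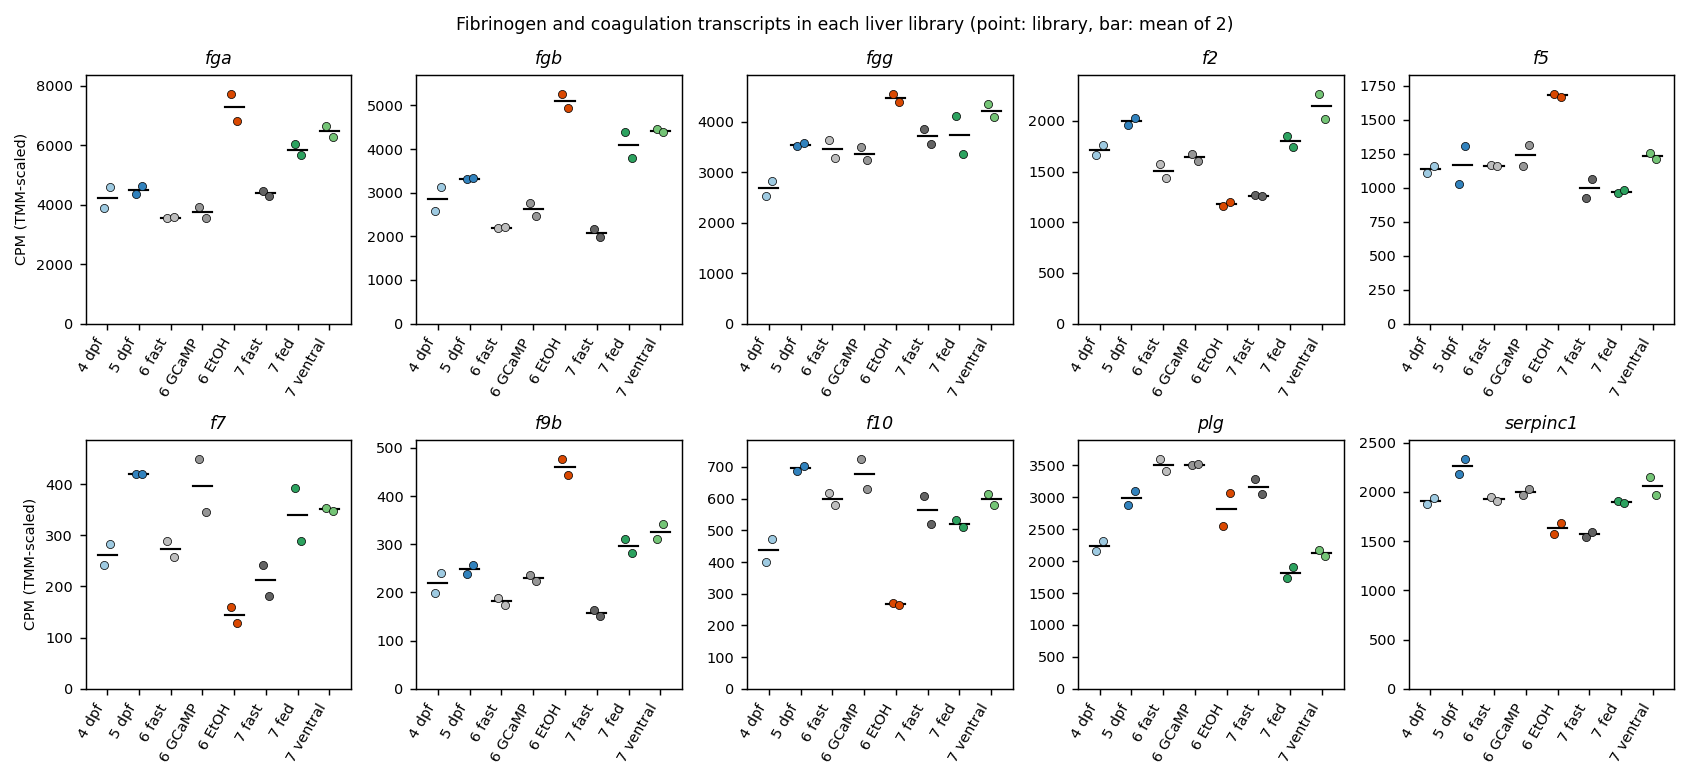
CPM (TMM-scaled, vertical axis from 0) of the 10 genes in the 8 groups, with a point for each library and a bar for the mean of 2. The numbers on the horizontal axis are dpf; fast is fasted, GCaMP the fasted reporter line, EtOH fasted with ethanol, and ventral the second fed group. On this scale the ethanol libraries were highest for fga, fgb, fgg, f5 and f9b and lowest for f2, f7 and f10.

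The alpha chain gene fga (ENSDARG00000020741) was highest with ethanol and lowest in fasted liver at 6 dpf. Its libraries read 7732 and 6815 CPM with ethanol, 3548 and 3585 CPM in fasted wild type and 3917 and 3558 CPM in the fasted reporter line. They read 3875 and 4580.2 CPM at 4 dpf, 4348 and 4641 CPM at 5 dpf, 4447 and 4304 CPM in fasted liver at 7 dpf, 6033 and 5667 CPM in fed liver and 6642 and 6290.0 CPM in ventral. The ethanol, ventral and fed groups stood in that order at the top without overlap, while each neighbouring pair of the other 5 groups overlapped. From the lowest to the highest group mean the level of fga differed 2.04-fold.

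The beta chain gene fgb (ENSDARG00000008969) moved over a wider range, 2.46-fold. Its libraries held 5269 and 4932 CPM with ethanol against 2194 and 2208 CPM in fasted wild type at 6 dpf, and 4387 and 3787 CPM in fed against 2165 and 1981 CPM in fasted liver at 7 dpf. At 4 dpf it read 2586 and 3121 CPM, at 5 dpf 3302 and 3335 CPM, in the reporter line 2763 and 2471 CPM and in ventral 4459 and 4386 CPM. All libraries of the ethanol, fed and ventral groups lay above all others, and the fasted wild-type libraries of both ages lay at the bottom.

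The gamma chain gene fgg (ENSDARG00000037281) varied least of the fibrinogen chains, 1.67-fold. With ethanol it read 4555 and 4395 CPM, and at 4 dpf, its lowest group, 2533 and 2833 CPM. In between, its libraries read 3519 and 3573 CPM at 5 dpf, 3629.7 and 3287 CPM in fasted wild type at 6 dpf, 3493 and 3231 CPM in the reporter line, 3854 and 3560.2 CPM in fasted liver at 7 dpf, 4105 and 3366 CPM in fed liver and 4345 and 4091 CPM in ventral. Only the ethanol group at the top and the 4 dpf group at the bottom did not overlap the group next to them.

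With ethanol, against fasted wild type of the same age, 2 of the 3 fibrinogen chains rose. The difference in fga was 1.03 ± 0.11 (log2 fold change ± SE, 95% interval 0.79 to 1.27, adjusted p = 8.26e-07) and that in fgb 1.21 ± 0.12 (0.96 to 1.46, adjusted p = 1.92e-07). For fgg it was 0.37 ± 0.12 (0.13 to 0.61), which passed the adjusted p of edgeR (0.0168) but not the fold limit, and its interval lies below a doubling. Of the 10 genes, 3 were called higher and 1 lower, where 11.8% of all tested genes were called higher and 11.1% lower (23% in all). With the reporter line in place of fasted wild type as the control, fga and fgb differed by 0.96 each and were under the 2-fold limit, and the call for fga also ended at 0.99 with the mean of both fasted groups as the control and at 0.94 without ethanol replicate 1.

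Feeding at 7 dpf left the chains in the same order of difference as ethanol, with fgb first, then fga, then fgg. The level of fgb in fed liver was 1.97 times that in fasted liver, a log2 difference of 0.98 ± 0.12 (0.73 to 1.23, edgeR adjusted p = 1.07e-06) that stopped just short of the fold limit. For fga the difference was 0.42 ± 0.11 (0.18 to 0.65, adjusted p = 0.00416), and for fgg 0.01 ± 0.12 (-0.23 to 0.25, adjusted p = 0.948). None of the 10 genes was called in this comparison by edgeR or DESeq2, although 37.5% of all genes tested were by edgeR. The call for fgb hung on single libraries: it passed at 1.05 without fasted replicate 1 and at 1.09 without fed replicate 2, and against the same fasted libraries the ventral group gave 1.09.

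From the groups at 4 and 5 dpf to the fasted groups the chains also diverged. The earlier groups were labelled normal and the later ones fasted, so age and labelled condition cannot be told apart. From 5 dpf to fasted liver at 6 dpf the log2 difference was -0.59 ± 0.12 for fgb (edgeR adjusted p = 0.000702), -0.33 ± 0.11 for fga (adjusted p = 0.0294) and -0.04 ± 0.12 for fgg (adjusted p = 0.85). Over the whole span from 4 to 7 dpf, fgb differed by -0.46 ± 0.12 (adjusted p = 0.00267), fgg by 0.47 ± 0.12 (adjusted p = 0.00232) and fga by 0.05 ± 0.11 (adjusted p = 0.736). All of these were under 2-fold and none was called.

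Because the chains are measured in the same library, their count ratios do not depend on the scaling. The count of fgg over that of fgb was 1.65 and 1.49 in fasted wild type at 6 dpf, 1.78 and 1.8 in fasted liver at 7 dpf and 1.26 and 1.31 in the reporter line. In the other libraries it was lower: 0.864 and 0.891 with ethanol, 0.936 and 0.889 in fed liver, 0.975 and 0.933 in ventral, 0.979 and 0.908 at 4 dpf and 1.07 in both at 5 dpf. Every fasted library without ethanol thus lay above every other library, and the fasted libraries given ethanol lay with the fed ones. The ratio of fga to fgb set fasted liver at 7 dpf apart, at 2.05 and 2.17 against 1.32 to 1.62 in the other 14 libraries. These ratios show unequal change of the chains and not which chain moved, and they were not tested.

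**Figure D2:**
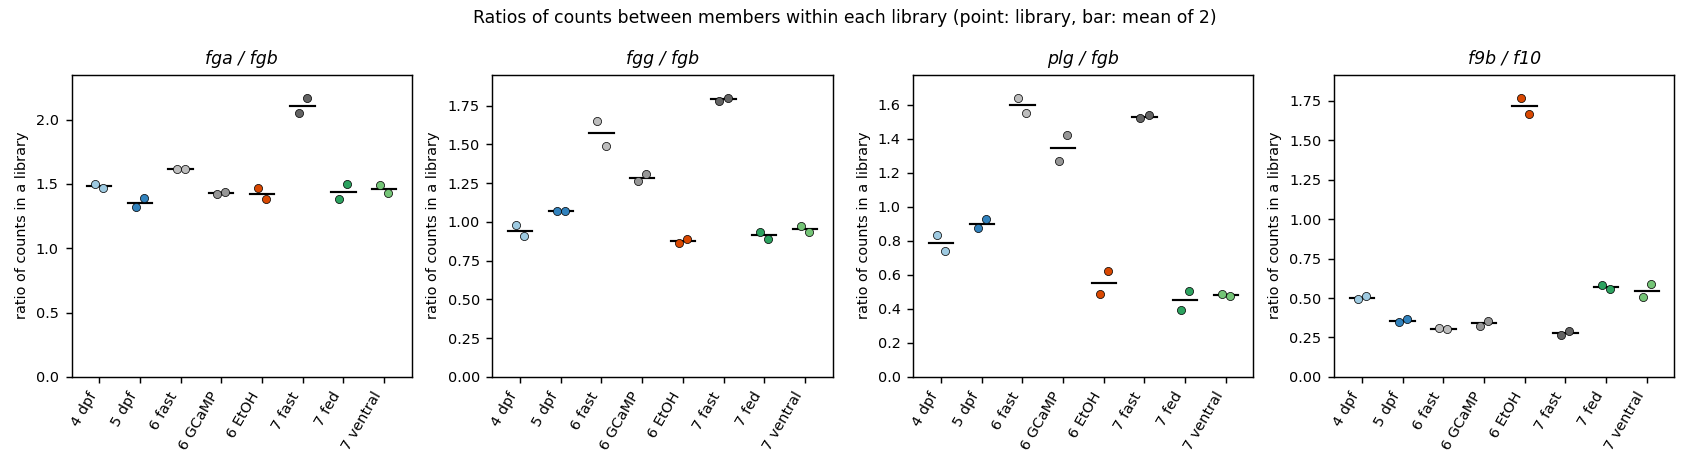
Ratio of the counts of a pair of genes within each library (vertical axes from 0, no unit), by group, with a point for each library and a bar for the mean of 2; group names as in the plot of levels. The ratio of fgg to fgb is 1.26 or more in the fasted libraries without ethanol, that of plg to fgb lies between 0.394 and 0.622 in the ethanol, fed and ventral libraries, and that of f9b to f10 is 1.77 and 1.67 with ethanol against at most 0.588 elsewhere.

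Among the 4 vitamin K-dependent proteases, f9b (ENSDARG00000029493), a factor IX gene, was the only one that stood higher with ethanol. Its libraries read 477 and 443 CPM with ethanol and 189 and 174 CPM in fasted wild type at 6 dpf, with no overlap. At 7 dpf they read 310.5 and 282 CPM in fed, 311 and 342 CPM in ventral and 163 and 152 CPM in fasted liver. Levels of f9b at 4 dpf (198 and 240.4 CPM), 5 dpf (239 and 257 CPM) and in the reporter line (236 and 224 CPM) lay between those of fasted wild-type and fed liver.

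With ethanol f9b rose 2.53-fold, by 1.34 ± 0.12 on the log2 scale (1.08 to 1.59, edgeR adjusted p = 8.51e-08). In fed against fasted liver the difference was 0.91 ± 0.12 (0.65 to 1.16, adjusted p = 3.96e-06), which is 1.88-fold and was not called. It was called at 1.05 with ventral in place of fed and at 1.1 with library size alone as the scale. The difference in f9b was -0.45 ± 0.12 from 5 dpf to fasted liver at 6 dpf (adjusted p = 0.00797).

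Factor X, where the pathways of activation meet, behaved in the opposite way with ethanol. The libraries of f10 (ENSDARG00000088581) read 270.1 and 266 CPM with ethanol against 618 and 579.5 CPM in fasted wild type and 725 and 631 CPM in the reporter line. The ethanol libraries were the lowest of all 16, below those at 4 dpf (401 and 472 CPM). The gene fell by 1.16 ± 0.12 on the log2 scale (-1.41 to -0.91, edgeR adjusted p = 4.02e-07), a level 2.23-fold lower. This call ended, at -0.70, when counts were scaled by library size alone, which left 3 calls, all higher, and put the median of all genes in this comparison at 0.453. In the ratio of f9b to f10 counts the ethanol libraries stood at 1.77 and 1.67, and all the others ran from 0.268 to 0.588.

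Fed libraries of f10 read 532 and 509 CPM, ventral 615 and 581 CPM and fasted 609 and 520.1 CPM, with overlap, and the log2 difference between fed and fasted was -0.12 ± 0.12 (-0.37 to 0.13, edgeR adjusted p = 0.431). Between 4 and 5 dpf the level went from 437 ± 49.8 to 695 ± 12.7 CPM, a difference of 0.67 ± 0.12 (0.42 to 0.92, adjusted p = 0.000268) under the fold limit.

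For f7 (ENSDARG00000034862), the factor VII gene that with tissue factor starts coagulation, ethanol libraries read 159 and 129 CPM against 288 and 258 CPM in fasted wild type and 449 and 345 CPM in the reporter line. On the TMM scale the ethanol libraries lay below all 14 others, while on library size alone they overlapped fasted liver at 7 dpf. Against fasted wild type the log2 difference was -0.93 ± 0.17 (-1.29 to -0.56, edgeR adjusted p = 0.000393), which missed the fold limit. It passed that limit at -1.46 with the reporter line as the control, at -1.19 with the mean of both fasted groups and at -1.08 without ethanol replicate 1. Fed libraries of f7 read 393 and 288 CPM, ventral 354 and 347 CPM and fasted 242 and 182 CPM at 7 dpf, a difference of 0.68 ± 0.17 between fed and fasted (adjusted p = 0.00295). At 5 dpf f7 stood at 419.9 and 419 CPM against 241 and 283 CPM at 4 dpf, a difference of 0.68 ± 0.17 (adjusted p = 0.00623).

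Prothrombin, the precursor of thrombin, was lowest with ethanol on the TMM scale. The libraries of f2 (ENSDARG00000036041) read 1158 and 1196 CPM with ethanol, 1268 and 1256 CPM in fasted liver at 7 dpf and 1574 and 1438 CPM in fasted wild type at 6 dpf, and none of these groups overlapped. In the remaining groups they ran from 1607 CPM in the reporter line to 2268 CPM in ventral. The log2 difference was -0.36 ± 0.11 with ethanol (edgeR adjusted p = 0.0121) and 0.51 ± 0.11 with feeding (adjusted p = 0.00046), both under the fold limit. With library size alone as the scale the ethanol difference turned to 0.1, and the ethanol libraries were not the lowest.

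Factor V has no enzyme activity and serves factor Xa as a cofactor. Its gene f5 (ENSDARG00000055705) read 1692 and 1667 CPM with ethanol, above every other library, all of which lay between 925 CPM (fasted, 7 dpf) and 1314 CPM (reporter line). With ethanol the difference was 0.53 ± 0.12 (0.27 to 0.79, edgeR adjusted p = 0.00206), a 1.44-fold difference that was not called. In fed against fasted liver it was -0.03 ± 0.12 (-0.29 to 0.22, adjusted p = 0.834).

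Plasminogen was highest in fasted and lowest in fed liver. The libraries of plg (ENSDARG00000023111) read 3599 and 3414 CPM in fasted wild type at 6 dpf, 3503 and 3517 CPM in the reporter line, 3281 and 3045 CPM in fasted liver at 7 dpf and 2555 and 3067 CPM with ethanol. They were lowest in fed liver, at 1729.8 and 1907 CPM, then in ventral at 2175 and 2081 CPM and at 4 dpf at 2154 and 2313 CPM, while 5 dpf held 2882 and 3098 CPM. Fed and fasted libraries at 7 dpf did not overlap.

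The difference in plg between fed and fasted liver was -0.80 ± 0.11 (-1.04 to -0.56, edgeR adjusted p = 8.07e-06), 1.74-fold lower and not called, and that with ethanol was -0.32 ± 0.11 (adjusted p = 0.0324). From 4 dpf to fasted liver at 7 dpf plg differed by 0.50 ± 0.11 (0.27 to 0.74, edgeR adjusted p = 0.000979). The count of plg over that of fgb was 1.64 and 1.55 in fasted wild type at 6 dpf and 1.52 and 1.54 in fasted liver at 7 dpf, against 0.485 and 0.622 with ethanol and 0.394 and 0.504 in fed liver.

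Antithrombin was the steadiest of the 10 genes. Group means of serpinc1 (ENSDARG00000042684) differed at most 1.44-fold, from 1570.0 ± 33.3 CPM in fasted liver at 7 dpf to 2259 ± 105 CPM at 5 dpf. Its libraries read 1576 and 1684 CPM with ethanol and 1950.3 and 1908 CPM in fasted wild type at 6 dpf, a log2 difference of -0.24 ± 0.10 (edgeR adjusted p = 0.0678), and fed against fasted it differed by 0.27 ± 0.10 (adjusted p = 0.0321). Neither pair of groups overlapped, and neither difference came near the fold limit.

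Across the 10 genes, ethanol therefore gave values in both directions. At any fold, 5 genes passed the adjusted p higher (fga, fgb, fgg, f5 and f9b) and 5 lower (f2, f7, f10, plg and serpinc1, of which f2, plg and serpinc1 turned to 0.10, 0.14 and 0.21 with library size alone as the scale), against 22.9% of all tested genes higher and 21.5% lower (44.4% in all). For all 10 the ethanol and fasted libraries did not overlap, which held for 70% of all tested genes. The median log2 difference of the 10 was 0.06, beside 0 for all genes tested.

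The makeup of the libraries differed with ethanol too. The 10 hepatocyte markers summed to 4.32% to 4.84% of counts with ethanol and 7.17% to 7.4% in fasted wild type. Of the 10, 8 fell and none rose, where 11.1% of all tested genes fell and 11.8% rose. All 15 exocrine pancreas markers fell (0.0125% to 0.133% of counts against 0.323% to 0.416%), as did 8 of 10 skin markers (0.0633% to 0.0687% against 0.357% to 0.482%). Thrombocyte markers, of cells that in fish do the work of platelets, summed to 0.00902% to 0.0104% with ethanol and 0.00275% to 0.00318% without, and 1 of the 7 was at 0 in fasted wild type. Only 2 of the 6 tested rose, and none fell. The most abundant of them, thbs1b, stood at 62.1 ± 6.65 CPM with ethanol and 26.2 ± 1.85 CPM without. In dissected liver, fewer cells of a type and less RNA per cell cannot be told apart, and the part of these shifts in the values of the 10 genes was not tested.

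**Figure D3:**
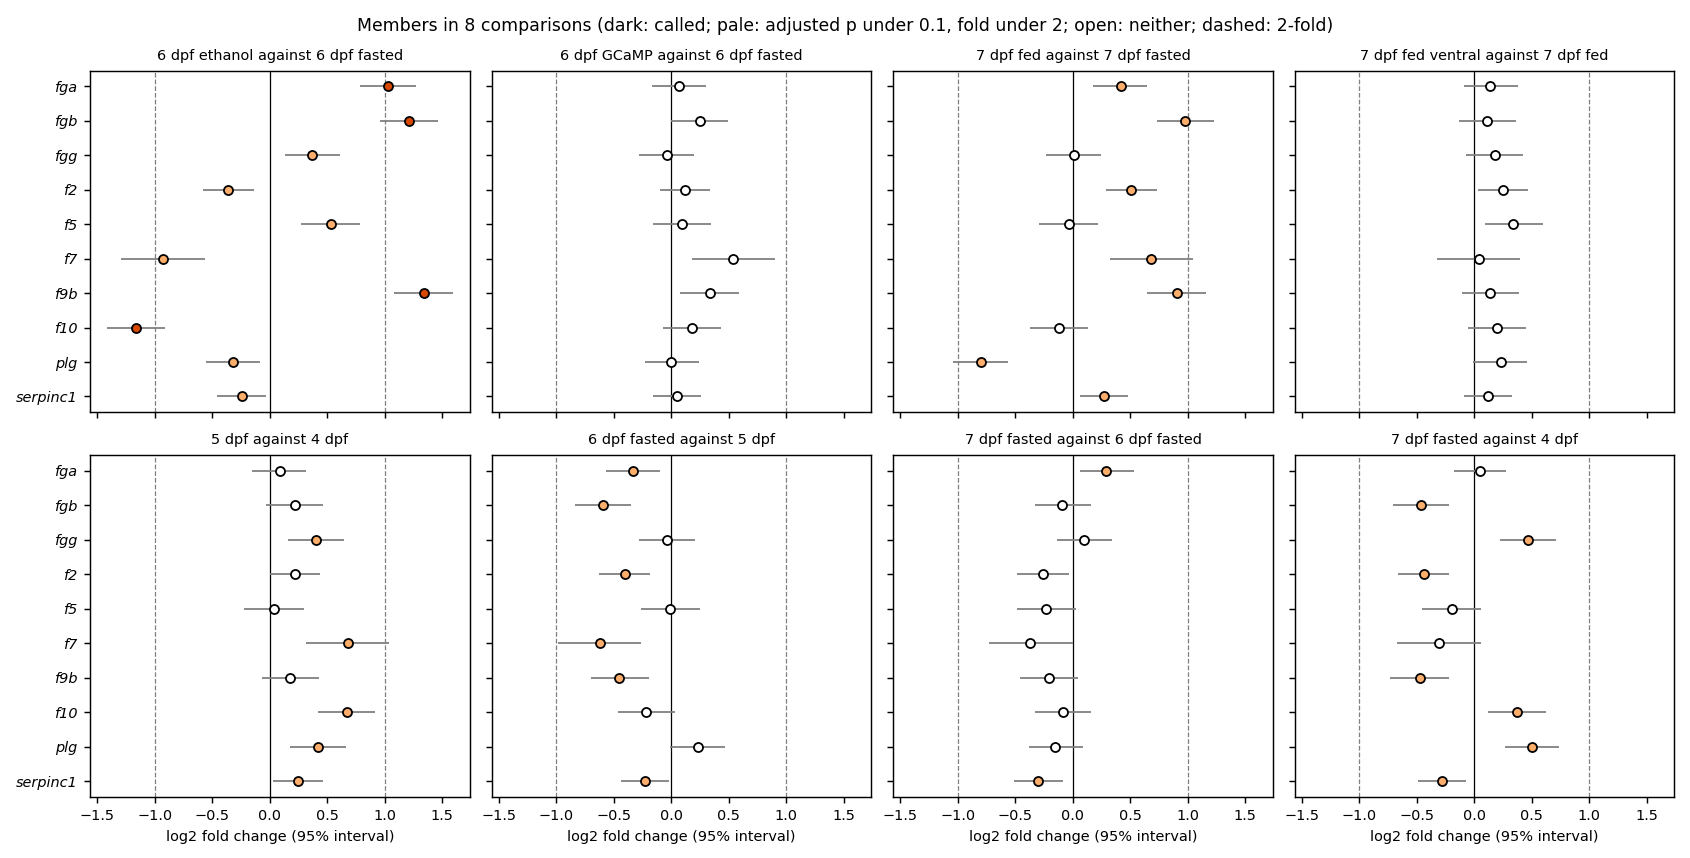
Log2 fold change of the 10 genes in each of the 8 comparisons (horizontal axis, first group over second; bars are 95% intervals). Dark points were called, pale points passed the adjusted p of 0.1 under 2-fold, open points passed neither, and dashed lines mark 2-fold. Dark points appear in the ethanol panel alone (fga, fgb, f9b and f10), and all intervals in the ventral panel have their centre between 0.04 and 0.34.

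In fed against fasted liver at 7 dpf, 7 of the 10 genes passed the adjusted p at any fold, 6 higher (fga, fgb, f2, f7, f9b and serpinc1) and plg lower, where 29.9% of all genes were higher and 27.5% lower (57.4% in all). The same 7 had an unadjusted p under 0.05. The median of the 10 was 0.35, beside 0 for all genes. Hepatocyte markers summed to 11% to 11.9% of counts in fed and 5.94% to 6.2% in fasted liver, exocrine pancreas markers to 0.257% to 0.288% and 0.62% to 1.27%, endothelial markers to 0.0212% to 0.0215% and 0.0674% to 0.0894%, and red blood cell markers to 0.0544% to 0.0684% and 0.000614% to 0.00181%. Of the 10 hepatocyte markers, 2 rose and 3 fell (20.7% and 16.8% of all genes), with a median log2 difference of -0.32. The abundant tfa, for transferrin, stood at 43034 against 7896 CPM. The part of the markers in the differences was not tested. The ethanol and feeding comparisons share no library. On the TMM scale, fga, fgb, f9b and plg of these 7 had the same sign in both. The genes f2, f7 and serpinc1 were lower with ethanol and higher with feeding. With library size alone as the scale, the ethanol values of f2, plg and serpinc1 turned to 0.10, 0.14 and 0.21, so their part of this pattern depends on the scaling. The difference between the comparisons was not tested.

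The reporter line and the ventral group differed little from their controls in these genes. None of the 10 was called in either comparison, where 0.961% and 1.16% of all genes were, and none passed the adjusted p at any fold, where 3.47% and 2.5% did. At an unadjusted p under 0.05 stood fgb, f7 and f9b for the reporter line and f2 and f5 for ventral, and DESeq2 called none in either. The largest value for the reporter line was that of f7, 0.54 ± 0.17 (0.18 to 0.90, edgeR adjusted p = 0.13). In ventral against fed liver all 10 values were above 0, from 0.04 for f7 to 0.34 for f5 (adjusted p = 0.956 and 0.214), though f7 turned to -0.05 with library size alone as the scale.

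None of the 10 genes was called in the remaining comparisons, between ages, by edgeR or DESeq2. Those from 4 or 5 dpf to fasted liver also differed in the labelled condition. Of all genes, 14.9% were called from 4 to 5 dpf, 18.2% from 5 dpf to fasted liver at 6 dpf, 6.81% from 6 to 7 dpf fasted and 39.1% from 4 dpf to 7 dpf fasted. At any fold, 5 of the 10 passed the adjusted p from 4 to 5 dpf, all higher (fgg, f7, f10, plg and serpinc1, against 17.5% of all genes higher and 34.8% in all). With library size alone as the scale, fgg and serpinc1 turned to -0.01 and -0.17. The TMM factors were 1.21 and 1.13 at 4 dpf and 0.89 and 0.864 at 5 dpf. The values of f7, f10 and plg are therefore also smaller on library size alone. From 5 to 6 dpf fasted, 6 passed and were lower (fga, fgb, f2, f7, f9b and serpinc1, against 20.2% lower and 37.7% in all). From 6 to 7 dpf fasted, fga was higher at 0.29 ± 0.11 and serpinc1 lower at -0.30 ± 0.10 (edgeR adjusted p = 0.0907 and 0.0593, against 19.3%). From 4 to 7 dpf, 3 were higher (fgg, f10 and plg) and 4 lower (fgb, f2, f9b and serpinc1, against 28.6% higher, 30.4% lower and 59% in all). The TMM factors of fasted liver at 7 dpf were 0.891 and 0.944, also below those at 4 dpf. On library size alone the 3 higher values are therefore smaller, and the 4 lower ones lie further down. In edgeR's fit across all genes, the genes at an unadjusted p under 0.05 were the same in each, except that f2 and f7 joined from 6 to 7 dpf. These comparisons share libraries with each other: fasted liver at 6 dpf is in 2 of them and is the control for ethanol and the reporter line.

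Hepatocyte markers ran over the same span from 9.75% to 10.1% of counts at 4 dpf, 11.2% at 5 dpf, 7.17% to 7.4% at 6 dpf and 5.94% to 6.2% at 7 dpf fasted, and skin markers from 0.0121% to 0.0126%, 0.028% to 0.0618%, 0.357% to 0.482% and 0.0868% to 0.0918%. The sum and the single hepatocyte markers differed in direction from 4 to 7 dpf fasted. Of the 10 markers, 2 rose and 1 fell, where 39.1% of all tested genes were called. Their median log2 difference was 0.55, while tfa went from 36305 to 7896 CPM. The part of these markers in the values by age was not tested.

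In the gene order of the GRCz12tu assembly, a later one than the GRCz11 build of the counts, fgb and fga are separated by a single uncharacterized protein-coding gene. The gene fgg lies elsewhere on the same chromosome. The genes f7l, f7, f7i, f10 and prozb follow each other directly. The f7 copies have similar sequences, as have the proca features described next, so reads may have been shared among them and their levels are uncertain. With ethanol, f7i (ENSDARG00000075827) fell from 118 ± 2.84 to 30.9 ± 4.12 CPM, by 1.93 ± 0.18 on the log2 scale (edgeR adjusted p = 2.64e-07). The other neighbours were not called: f7l differed by -0.45 ± 0.14 (adjusted p = 0.0174) and prozb, a protein Z gene, by 0.05 ± 0.19 (adjusted p = 0.875). The block of adjacent genes thus held values from -1.93 to 0.05 with ethanol. With feeding f7i rose by 1.76 ± 0.18 (adjusted p = 2.76e-07).

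Factor IX has a second gene, f9a (ENSDARG00000010097). Its libraries read 2.7 and 2.32 CPM with ethanol against 13.7 and 13.9 CPM in fasted wild type, and it fell by 2.45 ± 0.23 (edgeR adjusted p = 1.3e-07) where f9b rose. The ethanol libraries of f9a lay below all others. With feeding f9a rose by 1.26 ± 0.21 (adjusted p = 5.4e-05), to 24.3 ± 7.33 from 10.1 ± 1.98 CPM, so the 2 genes had the same sign there.

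Of 35 tested genes among other coagulation and fibrinolysis genes, 6 rose and 7 fell with ethanol (11.8% and 11.1% of all genes), with a median log2 difference of -0.12. Besides f9a and f7i, vwf, the endothelial von Willebrand factor, rose by 3.32 ± 0.89 from low counts (42 and 52 against 4 and 2, edgeR adjusted p = 0.00681). Both features named proca, for the anticoagulant protein C, fell, by 1.26 ± 0.14 and 1.09 ± 0.15.

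In fed liver 5 of these 35 genes rose and 6 fell (20.7% and 16.8% of all genes), with a median of 0. Besides f7i, the most changed were proza, a protein Z gene, which fell by 2.62 ± 0.17 to 11.2 ± 2.28 CPM, tfpi2, a protease inhibitor, which fell by 1.78 ± 0.47, and pros1, the protein C cofactor, which fell by 1.63 ± 0.28 to 20.5 ± 7.59 CPM (edgeR adjusted p = 2.52e-10, 0.00359 and 0.000546). Ventral against fed had no call among them by edgeR, at any fold, or by DESeq2, and 2 stood at an unadjusted p under 0.05. Of all genes, 1.16% were called there by edgeR and 2.5% passed at any fold.

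Between ages, 6 of the 35 rose and 2 fell from 4 to 5 dpf (14.9% of all genes were called), 2 rose and 5 fell from 5 to 6 dpf fasted (18.2%), 3 rose and 1 fell from 6 to 7 dpf fasted (6.81%), and 11 rose and 4 fell from 4 to 7 dpf fasted (39.1%). The gene f8, for the cofactor of factor IXa, fell between 4 and 5 dpf through a single library: it had 1462 counts in 4 dpf replicate 1 and 40 in replicate 2, and without replicate 1 its difference was -0.16. The fall of vwf rested on that library too (194 and 25 counts), with -1.37 in its absence. From 5 to 6 dpf fasted, anxa2a, for a plasminogen-binding annexin, rose by 2.40 ± 0.61 (not called in a fit of those 2 groups alone, where edgeR's adjusted p = 0.231), while thbd, for thrombomodulin, fell by 2.02 ± 0.43 and f7i fell by 1.58 ± 0.18. A day later, in fasted liver, anxa2a fell by 2.39 ± 0.61 and thbd and f13a1b (a factor XIII subunit gene) rose by 1.71 ± 0.43 and 1.59 ± 0.51. Both were low in fasted liver at 6 dpf, thbd at 0.802 and f13a1b at 0.593 CPM. Over the whole span proza rose by 2.73 ± 0.17 and f3a, for tissue factor, by 2.60 ± 0.89, from 0.253 to 1.57 CPM. In the reporter line thbd rose by 1.65 ± 0.43 (adjusted p = 0.0593), and f13b, for the other factor XIII subunit, had 31 and 43 counts against 0 in both control libraries. Both of these calls ended whichever of the 4 libraries was left out. So did those for anxa2a in fasted liver from 6 to 7 dpf without 6 dpf replicate 2 or either 7 dpf library, for f13a1b without 6 dpf or 7 dpf replicate 1, for thbd without 7 dpf replicate 1, and for f3a without 4 dpf replicate 2.

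Several genes that serve the modification and export of coagulation factors rose with feeding. Of 10 tested, 5 rose and none fell in fed liver (20.7% and 16.8% of all genes), with a median log2 difference of 0.92. The gene lman1, for the cargo receptor of factors V and VIII, read 198 and 174 CPM in fed and 21.3 and 25.3 CPM in fasted liver, a rise of 3.0 ± 0.13 (edgeR adjusted p = 1.28e-12), and mcfd2, for its partner, rose by 2.30 ± 0.12. The carboxylase gene ggcx, whose enzyme modifies the vitamin K-dependent factors, rose by 1.68 ± 0.11, and the vitamin K reductase genes vkorc1 and vkorc1l1 rose by 1.40 ± 0.18 and 1.88 ± 0.27. From 4 dpf to fasted liver at 7 dpf the same 5 genes fell and nqo1, for a quinone reductase, rose by 1.87 ± 0.28. Of all genes, 39.1% were called there. The 5 had log2 differences of -2.93 ± 0.13 for lman1, -2.20 ± 0.12 for mcfd2, -1.89 ± 0.11 for ggcx, -1.76 ± 0.18 for vkorc1 and -1.55 ± 0.27 for vkorc1l1. Fasted liver at 7 dpf is in both comparisons.

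With ethanol 3 of the 10 rose and none fell (11.8% and 11.1% of all genes), with a median of 0.44: vkorc1l1 by 1.32 ± 0.27, mcfd2 by 1.27 ± 0.12 and ggcx by 1.06 ± 0.11. For lman1 the ethanol libraries read 52.8 and 52.7 CPM against 36.4 and 32.5 CPM, a difference of 0.61 ± 0.12 (edgeR adjusted p = 0.000508) that was not called. The call for ggcx ended at 0.99 with the reporter line as control, and that for vkorc1l1 at 0.94 without fasted replicate 1.

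**Figure D4:**
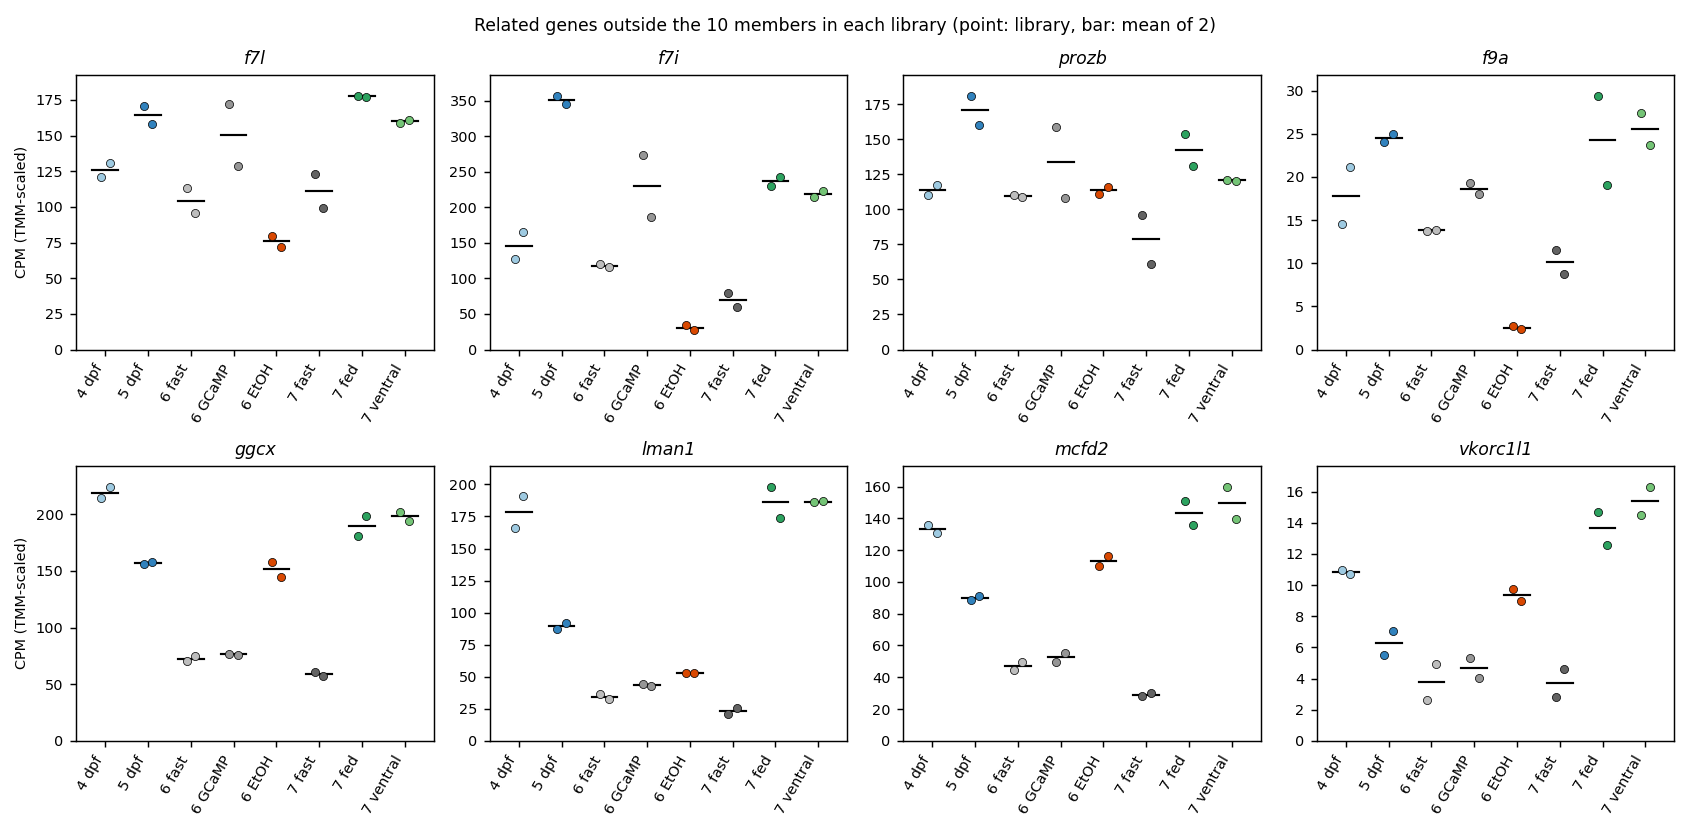
CPM (TMM-scaled, vertical axes from 0) of 8 related genes in each library, with a point for each library and a bar for the mean of 2; group names as in the plot of levels. The upper row holds neighbours of f7 and f10 and the second factor IX gene f9a, and the lower row holds ggcx, lman1, mcfd2 and vkorc1l1. Points for f9a with ethanol are the lowest of its panel, and lman1 stands at 198 and 174 in fed against 21.3 and 25.3 in fasted liver.

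Among 19 genes for regulators of liver and acute-phase transcription, 3 rose and none fell with ethanol, where 11.8% and 11.1% of all genes did: cebpa, for a C/EBP factor of hepatocytes, by 2.29 ± 0.18 (17.6 ± 4.79 to 86.1 ± 12.6 CPM, edgeR adjusted p = 3.83e-08), socs3a, for a feedback inhibitor of interleukin 6 signalling, by 2.14 ± 0.74 (adjusted p = 0.0535) and onecut1, for a liver transcription factor, by 1.48 ± 0.31 (adjusted p = 0.000918). The call for socs3a ended whichever of the 4 libraries was left out, and onecut1 stood at 0.75 with the reporter line as the control. In fed liver, where 20.7% of all genes rose and 16.8% fell, cebpa rose by 1.64 ± 0.18, and cebpd, socs3a, socs3b, foxa1 and ppargc1a fell, with values of -1.59 ± 0.26, -1.68 ± 0.76, -1.1 ± 0.24, -1.06 ± 0.16 and -1.55 ± 0.22. With ventral in place of fed, cebpa turned to -0.32 and the call for ppargc1a ended at -0.66. Those for foxa1 (-0.96 without fasted replicate 1, -0.89 without fed replicate 1) and socs3b (-0.93 without fed replicate 2) ended when the library named was left out. Both also ended with library size alone as the scale, at -0.85 for foxa1 and -0.90 for socs3b. The call for socs3a ended when either fasted library or fed replicate 2 was left out (-0.87 without the latter). It also ended with the replicate block (-1.66, edgeR adjusted p = 0.132), with library size alone and in a fit of the 2 groups alone. In ventral against fed liver cebpa fell by 1.96 ± 0.18, with libraries at 19.6 and 25.2 CPM against 85.1 and 88.4 CPM, and foxa1 fell by 1.09 ± 0.17 (-0.95 and not called without fed replicate 2, -0.97 without ventral replicate 2). In that comparison 1.16% of all genes were called. The fibrinogen chains had values of 0.11 to 0.18 between the same libraries, and a link between the regulators and the chains was not tested.

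Between ages, cebpd rose by 1.48 ± 0.26 from 4 to 5 dpf. From 5 to 6 dpf fasted ppargc1a rose by 2.01 ± 0.23, and cebpa, nr1h4 (the bile acid receptor), foxa1 and onecut1 fell, with values of -2.14 ± 0.18, -1.73 ± 0.16, -1.47 ± 0.16 and -1.06 ± 0.32. In fasted liver from 6 to 7 dpf onecut1 and foxa2 rose by 1.41 ± 0.31 and 1.02 ± 0.31. From 4 to 7 dpf socs3a, cebpd and ppargc1a rose by 3.15 ± 0.82, 1.60 ± 0.26 and 1.29 ± 0.22, and cebpa and nr1h4 fell, with values of -2.08 ± 0.18 and -1.88 ± 0.16. With library size alone as the scale, the call for ppargc1a over this span ended at 0.95, and that for onecut1 from 5 to 6 dpf fasted at -0.99. Of all genes, 14.9% were called from 4 to 5 dpf and 18.2% from 5 to 6 dpf fasted. The share was 6.81% from 6 to 7 dpf fasted and 39.1% from 4 to 7 dpf fasted. None of the 19 was called in the reporter line by edgeR or DESeq2, where 3 passed edgeR's adjusted p at any fold and 5 stood at an unadjusted p under 0.05. Of all genes, 0.961% were called there and 3.47% passed at any fold. The calls for onecut1 from 5 to 6 dpf and foxa2 from 6 to 7 dpf ended under other settings: onecut1 stood at -0.94 without 5 dpf replicate 1 and at -0.74 without 6 dpf fasted replicate 2, and foxa2 at 0.39 without 7 dpf fasted replicate 1, at 0.98 with library size alone, at 0.86 and 1.19 without 6 dpf fasted replicates 1 and 2, and at 1.04 in a fit of the 2 groups alone, where edgeR's adjusted p = 0.266, 0.112 and 0.103.

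Some genes outside the set of 10 had group means close in pattern to the fibrinogen chains. Likeness was taken as Pearson's r between the log2 CPM of a gene and the mean standardised log2 CPM of the 3 chains over the 8 group means, among 6588 genes with a mean of at least 10 CPM, as a description without a test. The unnamed gene si:dkey-96g2.1 came first at r = 0.986 (252 CPM with ethanol, 88.7 CPM in fasted wild type at 6 dpf, 160.4 CPM fed and 98.3 CPM fasted at 7 dpf). It was followed by avl9, myrfl, fbxo31 and yipf3 at r = 0.942, 0.939, 0.935 and 0.933. Without the ethanol group the values were 0.98, 0.9, 0.904, 0.891 and 0.891, at ranks 1, 59, 54, 72 and 71. The chains fga, fgb and fgg themselves reached r = 0.969, 0.915 and 0.852 over the 8 groups. Their ranks were 2, 10 and 54 among the 6588 genes, and 7, 99 and 338 without the ethanol group. Each chain is part of the mean it is set against. The 5 genes were picked for the highest r outside the set, so their order beside the chains is not read as a result. Of the other 7 genes of the set, f9b reached r = 0.896 and f5 0.516, while f10 and plg stood at -0.516 and -0.464. Without the ethanol group these values were 0.815, -0.076, 0.13 and -0.665, and that of f2 went from -0.007 to 0.662. The 8 points share libraries and scaling with the chains themselves.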

How the data were processed

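Per the labels' protocols, livers of 30 larvae made each library, prepared with a directional kit. HISAT2, featureCounts and the GRCz11 build are named in the submitters' processing notes as what the authors used for mapping and counting; no source used here gives versions, annotation release or strand setting. The authors deposited raw counts per gene. Of values from 1 to 50, 70.3% to 77.8% per library were even, so pairs may have been counted per mate; tests were repeated with every count halved.

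The test was that of edgeR 4.0.16 (R 4.3.3; counts, quasi-likelihood F test, robust, TMM factors 0.837 to 1.3, default low-count filter) in a single model of 16 libraries with 8 residual degrees of freedom, adjusted by Benjamini-Hochberg over 17799 genes, and tested on simulated data. The SE is the absolute log2 fold change over the square root of F. DESeq2 1.42.0, other scaling, no filter, a replicate block, 2-group fits, other limits and left-out libraries were the alternatives; using the reporter line alone as control and ventral in place of fed were chosen after seeing the data.

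The 10 genes and all lists were chosen with earlier results of these data known. Named beside the 10 were the 4 most changed called genes of the coagulation list per comparison, called regulators, the most abundant markers and the 5 genes most like the chains; other named genes were chosen after their values were seen, and not all are printed (1 gene the rule names is not reported here). Of 50 symbols in the coagulation list 38 features were found and 35 tested. All 10 symbols were found in RefSeq's GRCz12tu table, which gave gene order only. In a separate table of gene names, matched by gene identifier, 9 of the 10 had the same symbol, ignoring letter case.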

Additional observations from a re-analysis of the deposited data

How the results depend on the processing

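The 10 genes gave 4 calls with ethanol (23% of all tested genes were called) and 0 in the other 7 comparisons (0.961% to 39.1%). Calls without a fold limit (adjusted p under 0.1) numbered 10 with ethanol, 7 in fed against fasted liver, 5 from 4 to 5 dpf, 6 from 5 to 6 dpf fasted, 2 from 6 to 7 dpf fasted and 7 from 4 to 7 dpf fasted. In the same order, 44.4%, 57.4%, 34.8%, 37.7%, 19.3% and 59% of all tested genes passed. In fed against fasted liver there were 2 calls (fgb and f9b) with library size alone as the scale and 2 (the same genes) with ventral in place of fed, and 0 to 1 with a library left out. Leaving out a library kept 4 calls with ethanol and 0 in each of the other 6 comparisons, though which genes were called changed with ethanol. Over 28 pairs of groups, deviations of same-numbered libraries correlated at -0.23 to 0.22 (median -0.02), with 4 pairs over 0.1. With 2 libraries per group, such correlations cannot exclude a clutch or day shared by some groups. With the replicate block there were still 4 calls with ethanol and 0 elsewhere, and the sign and call of all 80 values of the 10 genes were kept, but among list genes the calls for socs3a in fed liver (-1.66) and f13b from 4 to 5 dpf (5.44) ended. Among list genes, library size alone gave 2 calls (not 8) from 4 to 5 dpf and 1 (not 2) in the reporter line for coagulation, 5 (not 3) with ethanol for vitamin K and export, and for regulators 5 (not 3) with ethanol, 4 (not 2) in ventral, 3 (not 1) from 4 to 5 dpf and 1 (not 2) from 6 to 7 dpf. For coagulation genes DESeq2 gave 1 in the reporter line and the 2-group fit 5 from 4 to 5 dpf. With no filter regulators had 2 calls from 4 to 5 dpf.

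Values near 0 changed sign. Library size alone, which put the median of all genes up to 0.453 from 0, gave with ethanol 0.10 for f2, 0.14 for plg and 0.21 for serpinc1, in the reporter line -0.01 for fga and -0.03 for serpinc1, in fed liver 0.16 for f5 and 0.08 for f10, and in ventral -0.05 for f7. From 4 to 5 dpf it gave -0.32 for fga, -0.19 for fgb, -0.01 for fgg, -0.19 for f2, -0.37 for f5, -0.23 for f9b and -0.17 for serpinc1, from 5 to 6 dpf 0.04 for fgg and 0.08 for f5, and from 4 to 7 dpf -0.29 for fga. For fgg in fed liver RLE scaling and DESeq2 gave -0.01. For f5 from 5 to 6 dpf, RLE scaling, DESeq2 and the 2-group fit gave 0.02 and halved counts 0.01. Ventral in place of fed gave 0.31 for f5, 0.08 for f10 and -0.32 for cebpa. With a library left out, values ran from -0.05 to 0.2 for fga and -0.15 to 0.2 for f5 (4 to 5 dpf), -0.1 to 0.15 for fga (4 to 7 dpf), -0.18 to 0.18 for f5 and -0.11 to 0.03 for fgg (5 to 6 dpf), and -0.2 to 0.02 for f10 (6 to 7 dpf). They ran from -0.11 to 0.04 for fgg in the reporter line, -0.1 to 0.15 for fgg and -0.13 to 0.07 for f5 in fed liver, and -0.16 to 0.28 for f7 in ventral. The cause of these shifts was not tested.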
